A study of Mus musculus with 3 samples.

Results

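The receptors described here are the class II odorant receptors on mouse chromosome 7 beyond the class I cluster, in the stretch that holds the neighbours of the P element. They were taken from the authors' table of named promoter positions, which gives for each row a receptor name and 1 position with a strand on build mm9. This stretch holds 63 of the table's 1085 positions. The 6 receptors known as neighbours of the P element (Olfr6, Olfr711, Olfr2, Olfr713, Olfr714 and Olfr17), 1 unannotated pseudogene and both rows of Olfr497 were left out, which leaves 54 receptors with 1 position each. The rule itself used names and positions and no array value, but it was set with earlier results of these data known. The sources used here do not say whether the table's positions were chosen with the help of these arrays. By their numbers all 54 are class II, and 53 names matched a protein-coding gene of chromosome 7 in the RefSeq table. Olfr708 had no match by name.

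Odorant receptors are membrane proteins of olfactory sensory neurons that couple odorant binding to a G protein. Their coding sequence lies in an exon without introns, behind short non-coding exons, so the capped 5′ end of the mRNA can lie some distance from the coding start. Each neuron expresses very few receptors of the family. Class II receptors are the tetrapod class, and class I receptors are the class shared with fish. The P element is an enhancer within a class II cluster, and its deletion in mice is known to lower the expression of receptor genes near it.

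The study mapped receptor 5′ ends in the olfactory epithelium, the sheet in the nose that holds these neurons, by RLM-RACE. In this method an RNA oligonucleotide is joined to decapped mRNA, so that full-length 5′ ends can be amplified. The cDNA was primed in the coding sequences with degenerate receptor primers and the product was read on tiling arrays. The Stringent group is 1 array with a product of nested PCR, and the High Coverage group is 2 arrays with products of PCR that was not nested. A sample is RNA from the epithelia of 5 mice of strain C57/Bl6, adults between 6 and 8 weeks old, and neither group holds a mutant or a treatment. In the file headers the High Coverage 1 input is named female and the High Coverage 2 input male, and a difference between these arrays cannot be told apart from one between the sexes.

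Every value below is a MAT score, the authors' measure of how far the probes in a short window stand above the brightness their sequence predicts on that array. Scores of different arrays have no common scale. Where a pair of High Coverage values is given, that of High Coverage 1 comes before that of High Coverage 2. A position is therefore given by its highest score within 100 bp and by the percentile of that score among the 2188086 scored probes of the same array. The highest score of a window is ranked among single probes, so a high percentile is favoured by the measure itself. A percentile is thus to be read beside those of other positions and not as enrichment. Fewer cells that use a receptor and less RNA per cell cannot be told apart in these pooled tissues. With 1 array against 2, no test between the groups was run. Intervals are exact Clopper-Pearson intervals at 95% and cover counting over positions only. Positions of 1 array are not replicates, and the number of arrays limits the precision.

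The 54 positions run from 113824061 to 116040708, a span of 2217 kb, with 24 on the plus strand and 30 on the minus strand. Neighbours lay a median of 23366 bp apart, and 31 of 53 neighbouring pairs faced the same way. The closest pair was Olfr697 and Olfr698, 4985 bp apart. A gap of 664 kb splits the receptors. The first 16, Olfr693 to Olfr716, occupy 467 kb together with the 6 left-out neighbours and are called the P element group here. The other 38, Olfr467 to Olfr519, occupy 1086 kb and are called the distal group. In the P element group 15 receptors lie on one side of the left-out neighbours and Olfr716 lies on the other. The label of a cluster around the P element thus describes 16 of the 54 receptors by position. The element itself was not located in the files.

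RefSeq (GRCm38.p6) gave an upstream sequence for 49 of the 54 receptors, all on the strand of the authors' table. For 40 of them the RefSeq model begins at the coding start, with lengths of 921 to 1002 bp that are multiples of 3, so the bases before it are not those before a mapped 5′ end. The other 9 models begin before the coding sequence, and 7 of these 9 belong to the P element group. The 5 with models over 2000 bp are shown because they are the receptors whose RefSeq start can lie at a leader exon. They were picked after values had been seen. Each line gives the 250 bases before the RefSeq start, 5′ to 3′ on the receptor's strand, and the distance from that start to the authors' position is unknown, since the builds differ. Capitals mark TATAAA (the TATA box), TAATNA (a core bound by homeodomain proteins such as Lhx2) and CCCNNGGG (the core bound by O/E factors), on either strand.
Olfr695: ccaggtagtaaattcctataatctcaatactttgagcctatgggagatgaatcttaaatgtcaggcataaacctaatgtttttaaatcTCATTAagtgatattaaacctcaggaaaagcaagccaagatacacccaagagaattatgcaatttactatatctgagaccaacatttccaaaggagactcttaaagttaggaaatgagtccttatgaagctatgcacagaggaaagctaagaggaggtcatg
Olfr701: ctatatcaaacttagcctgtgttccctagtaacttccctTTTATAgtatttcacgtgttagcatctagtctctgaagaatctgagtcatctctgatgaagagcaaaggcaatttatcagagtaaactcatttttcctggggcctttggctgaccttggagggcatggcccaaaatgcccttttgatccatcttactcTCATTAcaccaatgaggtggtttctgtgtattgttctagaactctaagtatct
Olfr702: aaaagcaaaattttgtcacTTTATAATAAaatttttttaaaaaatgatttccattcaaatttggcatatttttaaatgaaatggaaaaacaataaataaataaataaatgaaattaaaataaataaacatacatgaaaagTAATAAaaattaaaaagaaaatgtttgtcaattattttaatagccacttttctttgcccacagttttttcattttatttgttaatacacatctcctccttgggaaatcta
Olfr710: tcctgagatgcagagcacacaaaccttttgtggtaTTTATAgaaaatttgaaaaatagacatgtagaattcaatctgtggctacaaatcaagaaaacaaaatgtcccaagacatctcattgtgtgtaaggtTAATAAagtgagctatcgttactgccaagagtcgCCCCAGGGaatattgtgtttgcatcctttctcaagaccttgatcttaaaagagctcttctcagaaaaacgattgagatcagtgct
Olfr478: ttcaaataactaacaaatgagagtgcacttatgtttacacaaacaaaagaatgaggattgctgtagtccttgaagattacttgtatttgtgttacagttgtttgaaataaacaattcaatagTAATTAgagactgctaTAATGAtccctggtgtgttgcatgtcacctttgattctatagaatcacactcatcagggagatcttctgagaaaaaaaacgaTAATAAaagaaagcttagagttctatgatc

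The models of these receptors are 2614 bp for Olfr695, 6581 bp for Olfr701, 3255 bp for Olfr702, 4246 bp for Olfr710 and 2673 bp for Olfr478. In the Olfr702 sequence a TATA box and a TAATNA core overlap. All 5 hold TAATNA, 3 hold TATAAA, and Olfr710 holds CCCNNGGG. These are matches of letters in this window and show no binding. Over the 49 sequences, 36 held TAATNA, or 73.5%, against 63.8% of 948 receptor sequences and 24.3% of 32851 sequences of all genes. TATAAA was in 30 of 49, or 61.2%, against 39.2% of receptor sequences and 12.4% of all. The stricter homeodomain core TAATTA, which TAATNA includes, was in 7, or 14.3%, against 18.0% and 4.84%. CCCNNGGG was in 2 of 49, or 4.08%, against 2.74% of receptor sequences and 11.8% of all. The cluster's sequences were rich in A and T, with a median of 68% against 66% over receptors and 47.6% over all genes. Since most of these windows lie before a coding start, the shares describe receptor gene surroundings and not mapped promoters.

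A called region is a stretch that the authors called on 1 array as standing above a threshold score, and it counts here when it reaches within 100 bp of the position. On Stringent 30 of the 54 positions had one, or 55.6% (41.4 to 69.1), against 61.7% of all 1085 positions. There were 25 on High Coverage 1, or 46.3% (32.6 to 60.4), against 36.4%, and on High Coverage 2 there were 27, or 50% (36.1 to 63.9), against 43.6%. The share over all positions lay inside the interval of the 54 on every array, so as a whole the cluster's shares lay near the background. The authors' thresholds stood for different MAT p-values on the 3 arrays, so the counts of 2 arrays are not at a like cutoff. The median percentile was 93.6 on Stringent and 93.6 and 94.4 on High Coverage 1 and 2, against 94.4 on Stringent and 91.3 and 92.4 on High Coverage over all scored positions.

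The P element group had a region at a larger share of its positions than the distal group on each of the 3 arrays. The P element group had a region at 14 of 16 positions on Stringent, or 87.5% (61.7 to 98.4), and the distal group at 16 of 38, or 42.1% (26.3 to 59.2). On High Coverage 1 the counts were 10 of 16, or 62.5% (35.4 to 84.8), against 15 of 38, or 39.5% (24 to 56.6). On High Coverage 2 they were 12 of 16, or 75% (47.6 to 92.7), against 15 of 38, or 39.5%. The intervals of the groups did not overlap on Stringent and overlapped on both High Coverage arrays. Over all positions the shares were 61.7% on Stringent and 36.4% and 43.6% on High Coverage. The P element group's interval held the share of all positions on Stringent, at its lower edge, and on High Coverage 1. On High Coverage 2 it lay above that share. The distal group's Stringent interval lay below the share of all positions, and its High Coverage intervals held theirs. The median percentile in the P element group was 95.2 on Stringent and 96.4 and 96.3 on High Coverage, and in the distal group it was 92.7 on Stringent and 91.0 and 89.9 on High Coverage. The gap that separates the groups was set by position, and the split was first looked at with values known. The number of scored probes in a window was 11 to 40 over the 54, with a median of 36.5 against 37 over all positions.

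**Figure D1:**
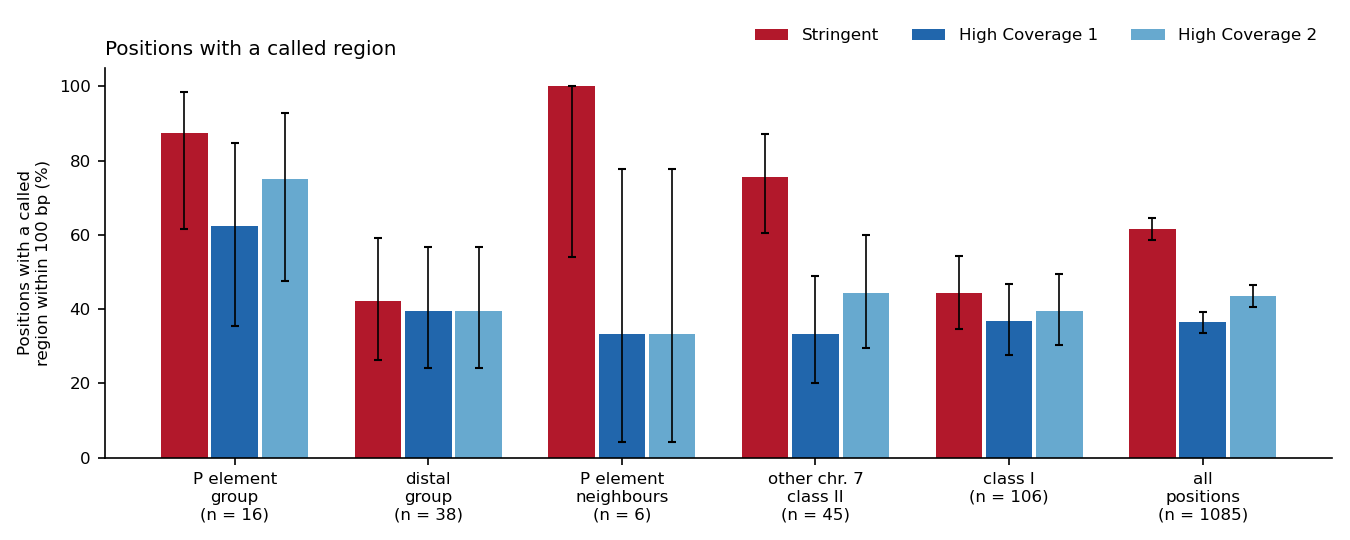
Share of positions with a called region within 100 bp (vertical axis, percent) for the P element group, the distal group, the P element neighbours, the other class II receptors of chromosome 7, class I receptors and all positions of the table, on each array. Bars are shares and lines are exact Clopper-Pearson 95% intervals; the Stringent bar is 87.5% in the P element group and 42.1% in the distal group.

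The 6 left-out neighbours of the P element, within the span of the first group, all had a Stringent region and 2 of 6 had one on each High Coverage array. Olfr6 scored 18.4 on Stringent and 0.363 and 1.82 on High Coverage 1 and 2. Olfr2, the mouse I7 receptor, scored 12.2 on Stringent and 1.39 and 2.34 on High Coverage. Olfr17, the P2 receptor long used to trace axons of olfactory neurons, scored 1.55 on Stringent and 6.19 and 2.47 on High Coverage 1 and 2. Olfr17 was thus the neighbour lowest on Stringent and highest on High Coverage 1. Olfr713 scored 13.2 on Stringent and 2.81 and 1.42 on High Coverage, Olfr714 scored 12.5 on Stringent and 1.24 and 0.138 on High Coverage, and Olfr711 scored 5.62 on Stringent and -0.283 and -0.981 on High Coverage. The other 45 class II receptors of chromosome 7 had a region at 34 positions (75.6%) on Stringent and at 15 (33.3%) and 20 (44.4%) on High Coverage. Class I receptors had one at 47 of 106 positions on Stringent and at 39 and 42 on High Coverage. The distal group's 42.1% on Stringent lay within the interval of the class I share, 44.3% (34.7 to 54.3), and below that of the other class II receptors (60.5 to 87.1). The P element group's Stringent interval overlapped that of the other class II receptors.

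Within the P element group, 7 of 16 receptors had a region on all 3 arrays. Over the whole cluster this held for 11 of 54, against 17.3% of all positions. Olfr708, separated from the left-out neighbours by Olfr710, scored 11.4 on Stringent and 4.27 and 11.2 on High Coverage 1 and 2. Its lowest percentile over the arrays, 97.0, was the highest of the 54 receptors. Olfr716, on the far side of the left-out neighbours at 114290781, scored 10.3 on Stringent and 2.73 and 11.9 on High Coverage, with a lowest percentile of 95.9. Olfr708 and Olfr716, on opposite sides of the left-out neighbours, thus had the highest and second-highest lowest percentile of the 54. Olfr491 of the distal group came next, at 95.5, and Olfr710, which lies nearer the left-out neighbours than Olfr708, had 89.5. Counted within 500 bp of the position, 20 of the 54 receptors had a region on all 3 arrays, and 4 had one where the region had to cover the position.

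Olfr701, the receptor with the longest RefSeq model shown above, scored 12.4 on Stringent and 2.46 and 12.1 on High Coverage 1 and 2. Olfr699, on the minus strand, scored 6.21 on Stringent and 16.6 and 23.3 on the High Coverage arrays. It had the highest score of the 54 receptors on both High Coverage arrays. Its High Coverage regions also reached farther upstream than its Stringent region, to -267 and -277 bp on High Coverage 1 and 2 against -105 bp on Stringent. The High Coverage signal lay mainly upstream, with means of 13.2 and 20.9 over the 150 bp upstream against 2.81 and 3.97 over the 150 bp downstream. On Stringent these means were 1.60 upstream and 4.86 downstream. Olfr706 and Olfr707, 6738 bp apart and both on the minus strand, scored 3.59 and 6.57 on Stringent, 4.39 and 5.19 on High Coverage 1, and 3.86 and 3.57 on High Coverage 2. Olfr697 completed the 7, with 2.50 on Stringent and 3.48 and 3.89 on High Coverage from 20 probes.

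Of the other receptors of the group, 4 had a Stringent region and a region on 1 High Coverage array. Olfr698 scored 13.7 on Stringent and 0.254 and 15.7 on High Coverage 1 and 2. Olfr704 was the reverse on High Coverage, with 13.1 on Stringent and 14.1 and 0.872 on High Coverage 1 and 2. The high score of these 2 receptors on Stringent was therefore matched on opposite High Coverage arrays. Olfr695 scored 5.62 on Stringent and 0.890 and 6.12 on High Coverage, and Olfr702 scored 5.04 on Stringent and 1.75 and 5.23 on High Coverage, so both were called on Stringent and High Coverage 2.

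Olfr693, the first receptor of the cluster, had a region on Stringent alone, with scores of 5.72 on Stringent and -0.138 and 0.274 on High Coverage 1 and 2. Olfr703 scored 2.38 on Stringent and 0.117 and -0.227 on High Coverage. Olfr705 scored 8.45 on Stringent and 1.91 and 2.57 on High Coverage. The scores of Olfr705 on the High Coverage arrays lay just below the authors' thresholds of 2.53 and 2.99, while those of Olfr693 and Olfr703 lay near 0. The 2 receptors with no Stringent region both had regions on both High Coverage arrays. Olfr694 scored 2.12 on Stringent, below the threshold of 2.52, and 5.32 and 4.57 on High Coverage. Olfr710, the receptor next to the left-out neighbours on the minus strand, scored 0.623 on Stringent and 3.71 and 3.01 on High Coverage. Each receptor of the P element group thus had a region on at least 1 array.

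**Figure D2:**
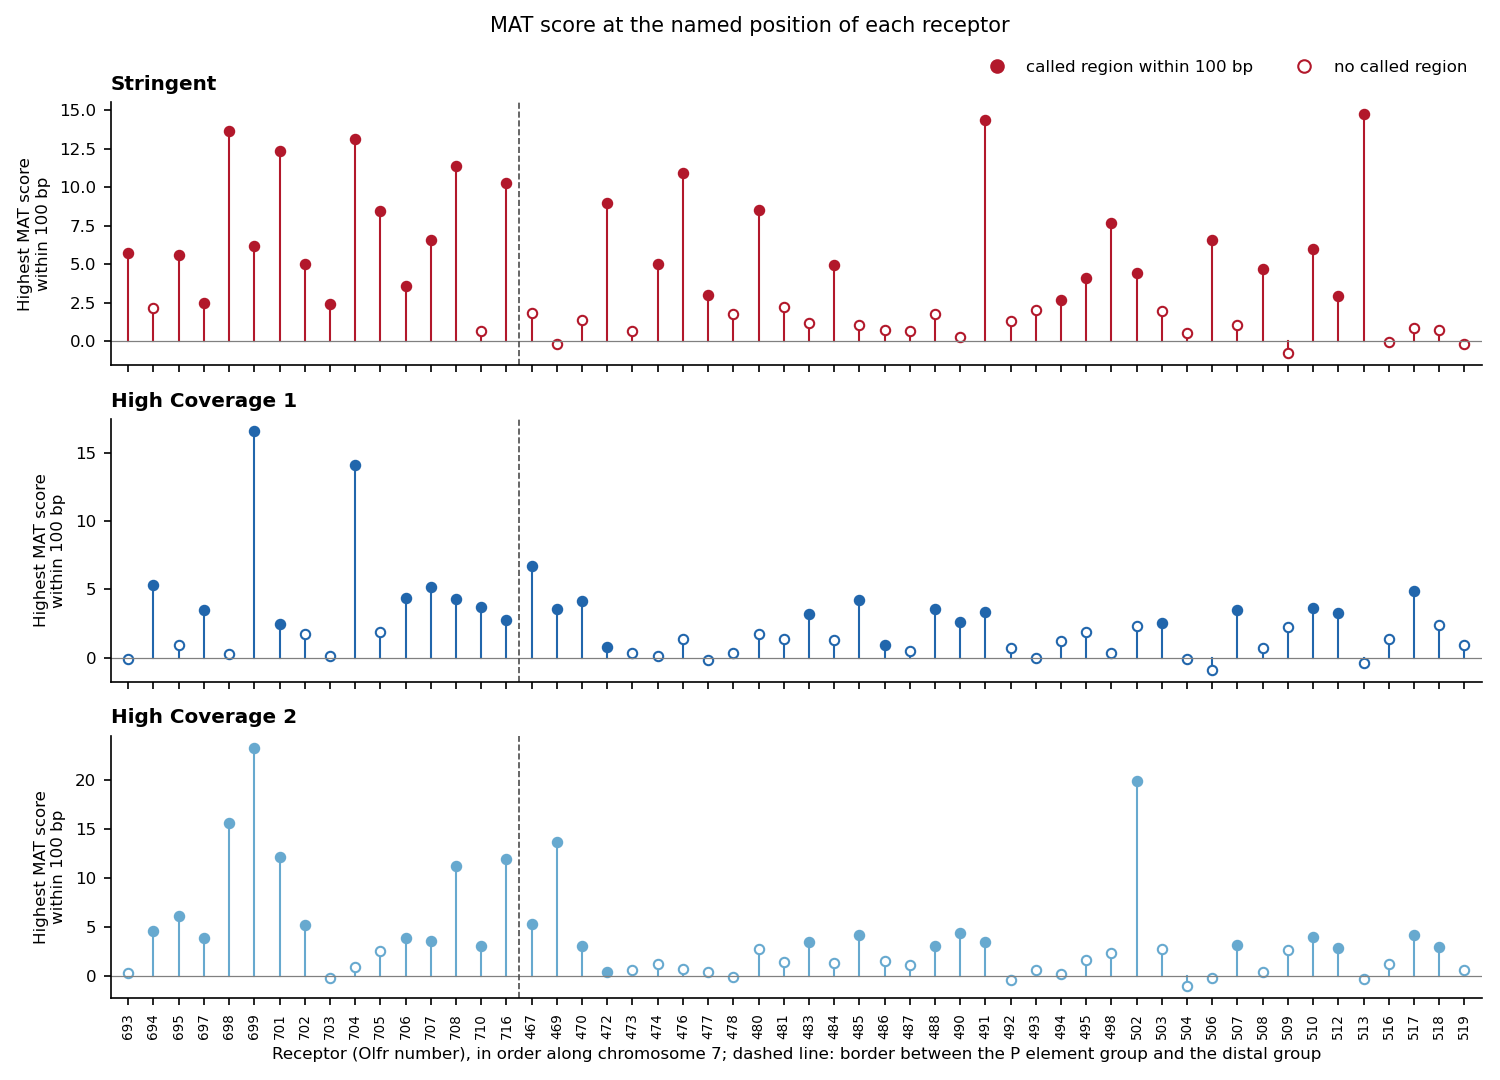
Highest MAT score within 100 bp of the named position (vertical axis, score of that array) for the 54 receptors in order along chromosome 7 (horizontal axis, Olfr number), on each array. Filled points have a called region within 100 bp; Stringent regions stand at 14 of 16 receptors left of the dashed line and 16 of 38 right of it.

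In the distal group most Stringent regions were at plus-strand receptors. Of the 19 plus-strand receptors 13 had a Stringent region, or 68.4% (43.4 to 87.4), and of the 19 minus-strand receptors 3 had one, or 15.8% (3.38 to 39.6). The intervals did not overlap. On High Coverage 1 the counts were 8 of 19 on the plus strand and 7 of 19 on the minus strand, and on High Coverage 2 they were 7 and 8. In the P element group 5 of 5 plus-strand receptors and 9 of 11 minus-strand receptors had a Stringent region. Over all positions of the table the Stringent share was 62.6% on the plus strand and 60.8% on the minus strand. The split by strand was noticed with values known and was not tested. The 8 minus-strand receptors without a region on any array had a median of 38 probes in the window, against 37 over all positions.

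The distal group had regions on all 3 arrays at 4 receptors, all on the plus strand. Olfr491 scored 14.4 on Stringent and 3.33 and 3.41 on High Coverage 1 and 2 within 100 bp. Its regions reached beyond that window, and their own scores were 25.2 on Stringent and 15.2 and 16.6 on High Coverage 1 and 2. Olfr472 was alike in this, with window scores of 8.96 on Stringent and 0.749 and 0.40 on High Coverage and region scores of 22.6 on Stringent and 6.63 and 16.4 on High Coverage. On both High Coverage arrays the Olfr472 region began 74 to 80 bp past the position. Olfr510 scored 5.97 on Stringent and 3.62 and 3.97 on High Coverage, from regions that began 24 bp before the position on Stringent and High Coverage 1 and 4 bp before it on High Coverage 2. Olfr512 scored 2.95 on Stringent and 3.24 and 2.80 on High Coverage, but its High Coverage regions lay upstream, ending 7 and 41 bp before the position. The Olfr512 region thus covered the position on Stringent and ended before it on both High Coverage arrays.

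A region on Stringent alone was found at 14 receptors of the cluster, against 28.3% of all positions, and 11 of these lay in the distal group. Olfr513 had the highest Stringent score of the 54, 14.7, against -0.405 and -0.347 on High Coverage. Olfr476 scored 10.9 on Stringent, against 1.38 and 0.643 on High Coverage, and its Stringent region of 773 bp with a region score of 27.2 was the longest of those at the 54 positions. Olfr498 scored 7.68 on Stringent, against 0.333 and 2.33 on High Coverage. The other 8 were Olfr474, Olfr477, Olfr480, Olfr484, Olfr494, Olfr495, Olfr506 and Olfr508. Olfr494 was the weakest, with 2.69 on Stringent against 1.19 and 0.194 on High Coverage 1 and 2. Over the 14 receptors the Stringent score had a median of 5.35, against medians of 0.523 and 0.534 on High Coverage 1 and 2. Stringent alone refers to the window of 100 bp, and some of these receptors had High Coverage regions just outside it. At Olfr476 a High Coverage 2 region with a score of 4.7 began 107 bp past the position. At Olfr508 a High Coverage 1 region with a score of 2.89 began 157 bp past it. At Olfr498 a High Coverage 1 region with a score of 2.65 ended 119 bp before it.

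Regions on both High Coverage arrays and not on Stringent were found at 11 receptors, or 20.4% of the cluster, against 9.77% of all positions. Of these, 8 were on the minus strand and 9 in the distal group. Olfr467, the first receptor past the gap, scored 1.80 on Stringent and 6.74 and 5.28 on High Coverage, from 11 probes. Olfr469 scored -0.210 on Stringent and 3.56 and 13.6 on High Coverage. Olfr517 scored 0.855 on Stringent and 4.85 and 4.12 on High Coverage, from 12 probes. The remaining distal receptors of this kind, Olfr470, Olfr483, Olfr485, Olfr488, Olfr490 and Olfr507, had Stringent scores of 0.275 to 1.74. The median length of these High Coverage regions was 178 bp and 148 bp on High Coverage 1 and 2, against 191 bp and 181 bp for all regions of the same arrays at the 54. Olfr467, Olfr470, Olfr488 and Olfr517, 4 of the cluster's 7 receptors with under 30 probes in the window, are among these 11. The part of the probe number in the count was not tested.

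No array had a region within 100 bp of the position at 10 receptors, against 18.8% of all positions, and all 10 were in the distal group, 8 of them on the minus strand. Within 500 bp the count was 5 receptors. Their Stringent scores ran from -0.770 at Olfr509 to 2.22 at Olfr481, with a median of 0.673. On High Coverage 1 the scores ran from -0.118 at Olfr504 to 2.24 at Olfr509, and on High Coverage 2 from -1.08 at Olfr504 to 2.58 at Olfr509. Olfr481, Olfr493 and Olfr478 came closest to the Stringent threshold, with 2.22, 2.01 and 1.78. Olfr509 came closest on both High Coverage arrays. Olfr519, the last receptor of the cluster, scored -0.195 on Stringent and 0.898 and 0.559 on High Coverage 1 and 2. Olfr473 scored 0.661 on Stringent and 0.365 and 0.551 on High Coverage, and Olfr487 scored 0.684 on Stringent and 0.466 and 1.06 on High Coverage. Regions began just past the window at both. At Olfr473 they began 172 bp past the position on Stringent, with a region score of 18.36, and 178 bp and 172 bp past it on High Coverage, with scores of 10.08 and 13.79. At Olfr487 both High Coverage regions began 104 bp past it, with scores of 3.43 and 3.67, and at Olfr478 a Stringent region with a score of 2.52 began 195 bp past it. The High Coverage scores were unlike at Olfr492, 0.725 and -0.473 beside 1.34 on Stringent, and alike at Olfr516, 1.38 and 1.19 beside -0.0520 on Stringent. These windows held 33 to 40 probes, against a median of 37 over all positions. The part of the probe number in the missing calls was not tested. Of the cluster's other receptors, Olfr486 and Olfr503 had a region on High Coverage 1 alone, Olfr518 on High Coverage 2 alone and Olfr502 on Stringent and High Coverage 2. The High Coverage 1 region of Olfr486 began 100 bp past the position, at the edge of the window. A High Coverage 2 region with a score of 3.14 began 115 bp past it. Olfr503 scored 2.54 and 2.75 on High Coverage 1 and 2, where the thresholds were 2.53 and 2.99. Olfr502 scored 4.41 on Stringent and 2.34 and 19.9 on High Coverage 1 and 2.

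Positions were set against each other between groups as the Stringent percentile minus the mean of the High Coverage percentiles. A difference was counted beyond 34.3 points, the 95th percentile of the absolute difference between the High Coverage arrays over 1079 scored positions. The cluster had 3 receptors higher on Stringent, against 8.8% of all scored positions, and 1 lower, against 1.2%, and all 4 were distal. These shares are near the background. Olfr506 stood at the 95.4 percentile on Stringent, against 30.7 and 62.0 on High Coverage 1 and 2. Olfr513 stood at 98.3 on Stringent, against 53.8 and 57.4 on High Coverage, and Olfr504 at 89.0 on Stringent, against 65.4 and 26 on High Coverage. The High Coverage arrays lay 3.63 points apart at Olfr513, while they differed by 39.4 points at Olfr504, which is more than the limit itself, and by 31.3 points at Olfr506. Set against High Coverage 1 alone, Olfr506 and Olfr513 were beyond the limit and Olfr504, 23.5 points higher on Stringent, was not. Set against High Coverage 2 alone, Olfr504, Olfr513 and Olfr492 were beyond it, Olfr492 by a difference of 39.4 points, and Olfr506 at 33.5 points was not. Of the 3 receptors, Olfr513 was thus the one beyond the limit against each High Coverage array. Olfr509 was the receptor lower on Stringent, at 47.6 on Stringent against 94.8 and 94.0 on High Coverage. On a scale of each array's median and MAD in place of percentiles, 14 receptors were higher on Stringent and 2 lower.

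**Figure D3:**
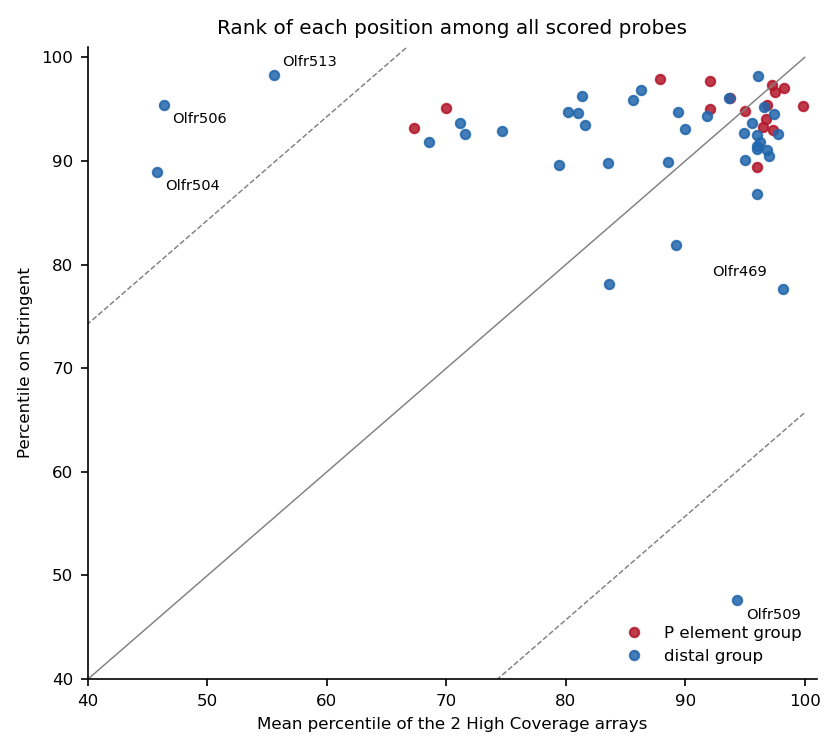
Percentile of each of the 54 positions on Stringent (vertical axis) against its mean percentile on the High Coverage arrays (horizontal axis), both among all scored probes of the array, coloured by group. Dashed lines mark the limit of 34.3 points either side of equality; Olfr504, Olfr506 and Olfr513 lie above it and Olfr509 below it.

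Between the High Coverage arrays 1 receptor, Olfr504, stood higher on High Coverage 1 by more than the limit, against 1.67% of scored positions. None stood lower, against 3.34%. The median absolute difference between them was 2.51 points over the 54, against 4.33 points over all positions. Both called a region at 22 receptors, which is 88.0% of the High Coverage 1 calls and 81.5% of the High Coverage 2 calls. Over all positions these shares were 74.4% and 62.2%. The arrays thus had a larger part of their calls in common over the 54 than over all positions, which was not tested. Stringent and High Coverage 1 shared 12 receptors, 40% of the Stringent calls and 48.0% of the High Coverage 1 calls, and Stringent and High Coverage 2 shared 15, or 50% and 55.6%. Stringent and High Coverage 1 shared 8 receptors in the P element group, 57.1% of the Stringent calls and 80.0% of the High Coverage 1 calls. In the distal group they shared 4, or 25% and 26.7%.

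Across the 54 receptors, High Coverage 1 and High Coverage 2 scores had a Spearman's rho of 0.70 and a Pearson's r of 0.47. Over the other 1025 scored positions the rho was 0.62 and the r 0.68, so rho was higher and r lower over the 54. Stringent had a rho of -0.06 with High Coverage 1 and 0.10 with High Coverage 2, against -0.13 and 0.07 over the other positions. Within the distal group the High Coverage arrays had a rho of 0.87 over 38 receptors, and within the P element group 0.16 over 16. These points share their probes and their arrays, so no p-value is given.

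At the positions the Stringent signal lay on the side of transcription. On Stringent the first 150 bp downstream had a higher mean score than the last 150 bp upstream at 51 of the 51 receptors with probes on both sides, against 95.1% of all positions. On High Coverage 1 it did so at 38 of 51, against 70.5%, and on High Coverage 2 at 37 of 51, against 74.9%. The 51 include receptors with no Stringent region. At Olfr504, one of these, the Stringent means were -0.402 downstream and -0.575 upstream. Whether the positions were set with the help of these arrays was not tested, so the direction is given as a description.

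The Stringent regions began a median of 40 bp before the position, and 26 of the 30 covered it. Those of Olfr695, Olfr697, Olfr703 and Olfr494 began 20 to 82 bp past it. On High Coverage 1 the median start was 29 bp before the position with 18 of 25 covering it, and on High Coverage 2 it was 40 bp before with 19 of 27. The region scores had medians of 8.07 on Stringent and 4.22 and 4.57 on High Coverage 1 and 2. These values are of the highest-scoring region at each position. The High Coverage 2 region of Olfr518 ended 59 bp before the position, and those of Olfr512 ended 7 bp before it on High Coverage 1 and 41 bp before it on High Coverage 2.

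In 25 bp steps along the strand, the median Stringent score over the P element group was 1.67 in the first bin past the position and 4.73 at 50 to 75 bp. It was 3.89 or more in every bin from 50 to 400 bp, with a peak of 7.64 at 275 to 300 bp (quartiles -1.16 to 8.32 over 13 receptors), and past 100 bp only 12 to 14 of the 16 receptors have probes in a bin. In the distal group it peaked at 1.46 at 50 to 75 bp, and over the other positions of the table at 3.6 at 75 to 100 bp. The Stringent profile of the P element group was therefore both higher and longer than that of the distal group. On High Coverage 2 the peaks were 2.98 in the P element group and 0.27 in the distal group, against 0.66 over the other positions. The High Coverage 1 peaks were 1.52 and 0.65, against 0.23.

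**Figure D4:**
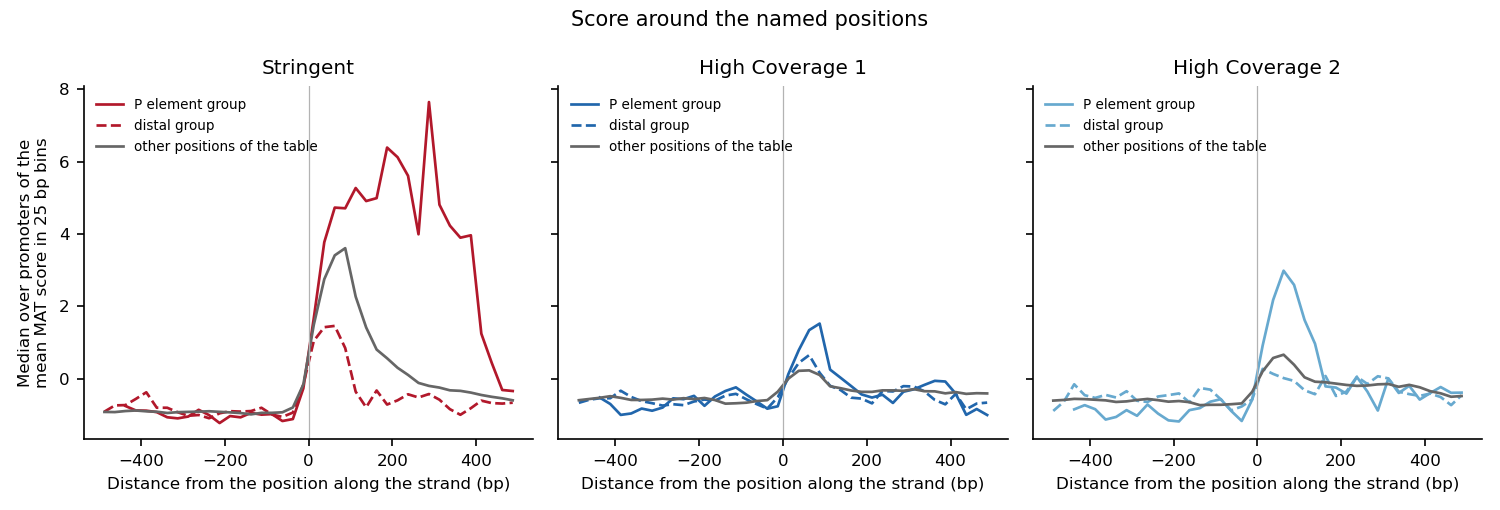
Median over receptors of the mean MAT score in 25 bp bins (vertical axis, score of that array) by distance from the named position along the strand (horizontal axis, bp), on each array, for the P element group, the distal group and the other positions of the table. Bins with under 10 positions are not drawn and bins past 100 bp hold 12 to 14 of the 16 receptors of the P element group; its Stringent curve is at 4.73 at 50 to 75 bp and peaks at 7.64 at 275 to 300 bp, and that of the distal group peaks at 1.46 at 50 to 75 bp.

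Called regions were also found farther downstream, between 200 bp and 10 kb along the strand or up to the next named position on that strand. On Stringent 48 of 54 receptors had such a region, against 89.2% of all positions. The count was 48 on High Coverage 1, against 96.6%, and on High Coverage 2 it was 49, against 93.7%. The cluster's shares were 88.9% on Stringent and 88.9% and 90.7% on High Coverage, near the background on Stringent and below it on High Coverage. The nearest such region began a median of 1488 bp from the position on Stringent, 1387 bp and 1832 bp on High Coverage 1 and 2. The near edge of a region decided whether it was counted. Regions at the next named position itself were therefore counted for Olfr698, Olfr707, Olfr506 and Olfr518. For Olfr698 the High Coverage 2 regions counted, at 4922 and 4975 bp, were those at Olfr697, 4985 bp away. Olfr698 is among the 49 receptors of High Coverage 2 through these alone. The 103 Stringent regions counted were 97 different ones, since 6 were within reach of a pair of receptors. Which of them lie in exons was not tested, as no mm9 annotation was at hand.

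The stretch searched reaches up to 10 kb, against a window of 100 bp on each side of the position. It held a median of 847 scored probes, against 36.5 in the window, so a higher maximum downstream is favoured by the search itself. The comparison below was not made over all positions. The strongest downstream region of a receptor had a median score of 15.6 on Stringent and 9.18 and 11.2 on High Coverage 1 and 2. It exceeded both the highest probe score within 100 bp of the position and the score of any region called there at 42 of 48 receptors on Stringent and at 44 of 48 and 41 of 49 on High Coverage. The 6 receptors where it did not on Stringent were Olfr698, Olfr701, Olfr708, Olfr472, Olfr476 and Olfr491. The highest downstream scores were 26.8 at Olfr477 on Stringent, 19.3 at Olfr498 on High Coverage 1 and 22.2 at Olfr483 on High Coverage 2. Olfr477 had a score of 3.0 at its position on Stringent. Its Stringent region of 26.8 ran from 279 to 898 bp past the position. Regions from -24 to 138 bp and from 140 to 277 bp lay directly before it, so it continued the called stretch at the position. The longest series of Stringent regions were 6 downstream of Olfr701 and 5 each downstream of Olfr694, Olfr706 and Olfr477. The regions at 4305 and 9411 bp past Olfr701 were also counted for Olfr702 on the other strand, at 9845 and 4257 bp. The strongest of the Olfr701 series, with a score of 12.01, is the one at 9411 bp and lies nearer Olfr702. At Olfr694, Olfr706 and Olfr477 some regions nearly touched, so separate stretches were fewer. Those of Olfr694 included 4011 to 4345, 4347 to 4444 and 4446 to 4872 bp. Those of Olfr706 included 625 to 664, 666 to 1152 and 1154 to 1395 bp.

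Receptors without a Stringent region at the position mostly had one downstream. Of these 24 receptors 19 had a downstream Stringent region, with a median best score of 15.45, against 29 of 30 and a median of 15.7 among receptors with one at the position. Some best regions were also counted for a receptor of the other strand. That of Olfr492, with 22.81 at 9212 bp, lies 3471 bp past Olfr491. That of Olfr469, with 17.88 at 9387 bp, lies 2801 bp past Olfr467. To which receptor such a region belongs was not tested. Over all positions, with or without a Stringent region at the position, the share with a downstream Stringent region was 89.2%. That share was not computed for all positions without a Stringent region at the position. Of the 10 receptors with no region at the position on any array, 7 had a downstream Stringent region, with a median best score of 15.1. The exceptions were Olfr504, Olfr509 and Olfr519. Olfr504 and Olfr509 had no downstream region on any array, with 566 and 422 scored probes searched. Olfr716 also had none on any array, but only 306 scored probes were searched there, the fewest of the 54. Olfr699 and Olfr512 had none on either High Coverage array. Olfr504 and Olfr509 were thus the receptors with no called region from 500 bp before the position to 10 kb past it on any of the 3 arrays.

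**Figure D5:**
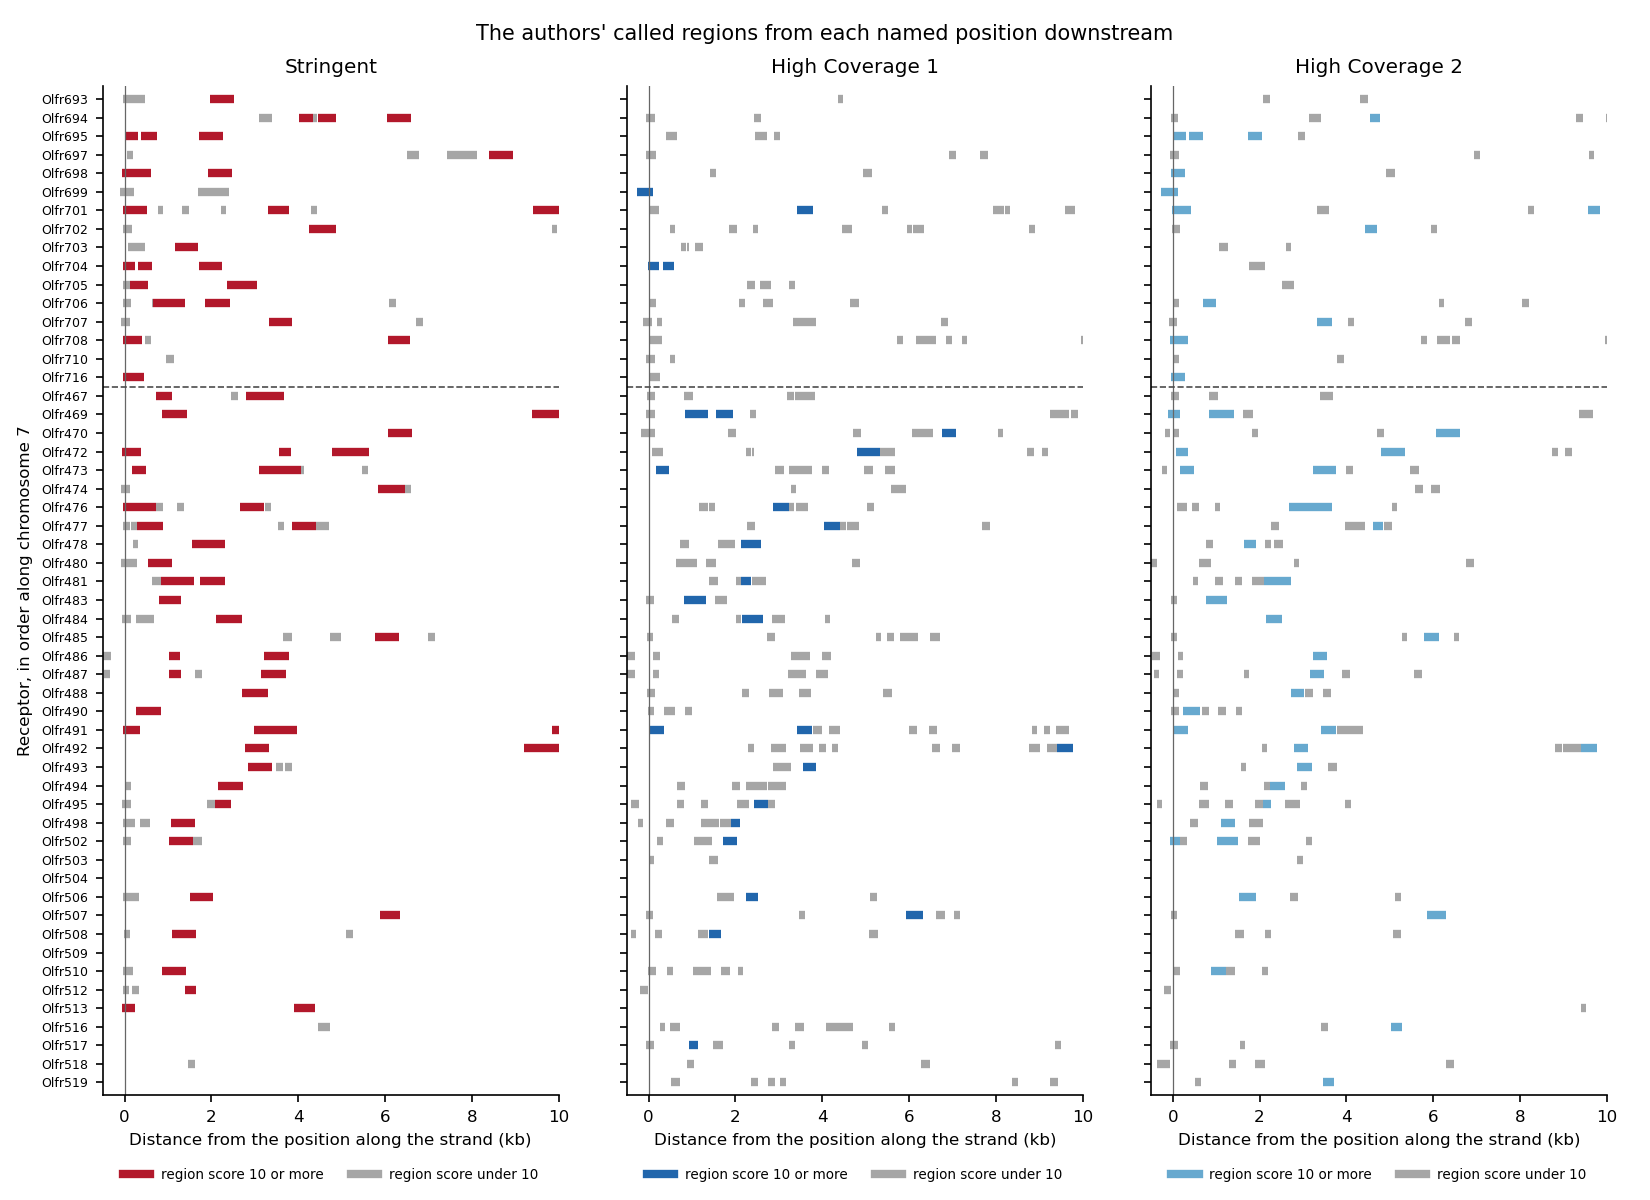
The authors' called regions from 500 bp before to 10 kb past each named position (horizontal axis, kb along the strand) for the 54 receptors in order along chromosome 7 (vertical axis), on each array, up to the next named position on the strand. Coloured bars have a region score of 10 or more and grey bars a lower one; Olfr504 and Olfr509 have none on any array.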

How the data were processed

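The data are 3 tiling arrays of RLM-RACE products, 1 Stringent and 2 High Coverage. The authors made the deposited MAT score of each probe from 1 array at a time with no control array, on a natural log scale, with BandWidth 50, MaxGap 30 and MinProbe 5 as the settings, per the file headers. They called regions per array above score thresholds of 2.52, 2.53 and 2.99 for Stringent, High Coverage 1 and High Coverage 2, which stood for MAT p-values of 1.75e-09, 1.72e-06 and 2.97e-07, per the file headers. The region score is the authors' value and describes a region within its own list. Per the submitters' processing notes, coordinates are of mm9. The sources used here do not say how the table's positions were chosen.

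A score of exactly 0 on all 3 arrays (5.42% of 2313448 probes) was read as no score. Regions counted with at least 1 bp of overlap with the window of 100 bp on each side of a position. The receptors, the groups and the lists were chosen with earlier results of these data known. The text names the 10 receptors with the highest lowest percentile, the extremes of both differences (5 and 3 at each end), up to 10 with no region, those beside the P element neighbours, the first and last, the 3 with most Stringent regions downstream and the 6 neighbours. Others named were picked after values were seen. The rule's pair of highest protein identity was not analysed here. Groups were split at gaps over 200 kb. Steps were tested on simulated data. RefSeq tables of GRCm38.p6 gave names, order and sequences. Computation was in Python 3.11.15 with scipy 1.17.1, pandas 2.3.3 and numpy 2.4.6, and figures were drawn with matplotlib 3.10.9.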

Additional observations from a re-analysis of the deposited data

Results flagged for a closer look

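A region outside the named positions had a called signal on all 3 arrays. It lies between Olfr17 and Olfr716 at 114272441 to 114272822 on chromosome 7 (mm9), 382 bp long on Stringent with a region score of 13.51. High Coverage 1 had an overlapping region of 327 bp with a score of 6.89, and High Coverage 2 one of 790 bp with a score of 16.86. The nearest named position is 17959 bp away. In the order of the RefSeq table, Olfr715b, Nlrp14 and Olfr715 lie between Olfr17 and Olfr716, and no named position carries the names of these receptors. Whether the region belongs to one of them was not tested.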

How the results depend on the processing

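Of 68 values recomputed under other settings, 54 stayed within 1.5 times the count or within the interval of the median, and so did 22 of 24 chosen after seeing the data. The cause of the other 16 was not tested. With a window of 500 bp, 20 receptors had a region on all 3 arrays and 5 on none, the median percentile was 97.0 and 95.6 on High Coverage 1 and 2, and 23 distal receptors had a High Coverage 2 region. With 50 bp the High Coverage 1 median was 86.7 and 6 receptors were higher on Stringent. Where the region had to cover the position, 4 had one on all arrays and 9 distal receptors one on High Coverage 2. With region lists cut to the 3608 strongest on each array, 7 had one on all arrays. Window means in place of maxima gave medians of 89.0 on Stringent and 66.5 and 72.9 on High Coverage 1 and 2, and 11 receptors higher on Stringent. A median and MAD scale gave 14 higher and 2 lower. Leaving out either High Coverage array gave 2 to 3 receptors higher on Stringent and 1 lower. The 3, with High Coverage 1 left out, were Olfr504, Olfr513 and Olfr492, with Olfr492 in place of Olfr506. The P element group had Stringent regions at 11 to 14 of 16 receptors under the alternatives, and the distal group at 15 to 21 of 38. No paired analysis was possible because Stringent is 1 array with no replicate number and no test was run. Precision is limited by the number of arrays.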

Other observations

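Both left-out positions of Olfr497, at 115560580 and 115566019 on the plus strand, had a called region on all 3 arrays. The position at 115566019 scored 12.3 on Stringent and 5.02 and 12.3 on High Coverage 1 and 2, and that at 115560580 scored 5.12 on Stringent and 0.906 and 1.33 on High Coverage. The left-out unannotated pseudogene at 115010399 had no region on any array, with scores of 0.882 on Stringent and 0.196 and 0.618 on High Coverage.

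Between Olfr693 and Olfr519 the RefSeq table lists 67 coding receptors, of which 60 have a named position, or 89.6%. Those without one are Olfr700, Olfr1532-ps1, Olfr715b, Olfr715, Olfr479, Olfr482 and Olfr514. It also lists 12 receptor pseudogenes in this stretch, and no position carries the name of any of them.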
